A study of Mus musculus with 4 samples.

Results

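The MYC, MAX and MXD network was followed in cultured fibroblasts of mouse embryos (MEFs) that had received the gene of mouse telomerase. Its 8 genes were Myc, Mycn, Max, Mxd1, Mxd3, Mxd4, Mxi1 and Mnt. They were read by every probe set annotated with exactly 1 of these symbols, which gave 17 probe sets of the 22626 on the Affymetrix MOE430A array that are not controls. Of the 17, 10 probe sets for 7 genes were called present on at least 2 of the 4 arrays and were tested. Mxd1 had no tested probe set.

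The 2 mTert samples carried the pBabePuro retrovirus with the catalytic subunit of mouse telomerase (Tert), and the 2 control samples carried the same retrovirus empty. Both groups therefore shared the viral vector, which confers puromycin resistance. The labels give no strain, passage or time after infection, and they do not say whether samples of a group came from separate cultures. A p-value here thus rests on the spread among the deposited samples alone, and the labels do not say how much of that spread is technical.

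Between 51.6% and 54.4% of probe sets were called present on each array, and all 11 fibroblast markers, among them Col1a1, Col1a2 and Vim, were present on all 4 arrays. The recorded amount of labelled cRNA was 15 µg for mTert 1, mTert 2 and control 2 and 5 µg for control 1. The summed signal of 11 macrophage markers was 3196 and 13263 on mTert 1 and mTert 2, and 2906 and 12500 on control 1 and control 2. Macrophage RNA signal therefore differed between the samples numbered 2 and 1 in both groups, with 10 of 11 markers present on both arrays numbered 2 and 6 on both numbered 1. Its part in the results was not tested. Of the epithelial markers Epcam, Krt8, Krt18 and Krt5 were absent on all arrays. So were Pecam1 and Cdh5 of endothelium, Myod1, Myog and Myf5 of muscle and Sox2, Gfap and Tubb3 of neural cells. Other markers of these types were detected. Tek of endothelium and Map2 of neural cells were present on all 4 arrays, and Des of muscle on all but mTert 2, where it was marginal. The endothelial Kdr was present on mTert 1 and control 1, the epithelial Krt14 on mTert 1 and control 2, and the epithelial Cdh1 on control 2 alone. In RNA of a whole culture, fewer cells of a type and less RNA per cell cannot be told apart. Tert itself, read by 1 probe set, had signals of 1165 and 845 on the mTert arrays, where it was present, against 128 and 84.7 on the control arrays, where it was absent.

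MYC and its relative MYCN are transcription factors that bind DNA only as partners of MAX, at a short element called the E-box, and activate genes of growth, ribosome production and metabolism. MXD1, MXD3, MXD4, MXI1 and MNT also pair with MAX and bind the same element, but they recruit the SIN3 corepressor and its histone deacetylases. Myc is transcribed soon after serum or growth factors reach resting fibroblasts, and MXD genes are known for their expression in cells that leave the cycle. TERT is itself a known target of MYC. Here its transcript came with a viral vector, so it was not counted among the targets.

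Myc had the largest difference between the groups among the tested member probe sets. Its probe set, 1424942_a_at, had signals of 571 and 545 in mTert 1 and mTert 2, against 892 and 717 in control 1 and control 2. The groups did not overlap, with mTert the lower one, and all 4 arrays were called present. The mean was 558 ± 18.2 in mTert and 805 ± 124 in control (SD, n = 2 each, in scaled arbitrary units). The log2 difference of mTert minus control was -0.52 (SE 0.16), with a 95% interval of -0.90 to -0.14 for this probe set taken alone, which is 1.43-fold lower. Adjusted over all 12396 tested probe sets, the limma p was 1.00, so the Myc difference did not pass the threshold of 0.05.

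By its limma p, Myc ranked 74th of the 12396 probe sets. A log2 difference of -0.5 or lower was seen for 1.23% of all tested probe sets. In this fit, which has no replicate term, the call rule itself gave 0 higher and 0 lower probe sets over the whole array (0% in each direction), Tert included, for which the limma adjusted p was 0.188. At an unadjusted limma p under 0.05 there were 105 higher and 156 lower probe sets, or 0.847% and 1.26%. Each mTert array correlated more closely with the control of its own number (r = 0.984 for both) than with the other mTert array (r = 0.971). The fit without a replicate term leaves that shared deviation in its error. With a replicate block, 18 probe sets passed the threshold (3 higher, 15 lower), 0 of them of a member.

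The size of the Myc difference varied with the arrays that were paired, but not its sign. It was -0.64 for mTert 1 minus control 1, -0.33 for mTert 1 minus control 2, -0.71 for mTert 2 minus control 1 and -0.39 for mTert 2 minus control 2. The control arrays differed from each other by -0.32 (control 2 minus control 1), and the mTert arrays by -0.067 (mTert 2 minus mTert 1). The higher of the control signals came from control 1, the array with a recorded 5 µg of labelled cRNA. Without that array the difference was -0.36 (SE 0.19). A single value compared over 2 against 2 arrays cannot give an exact two-sided permutation p below 0.333.

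**Figure D1:**
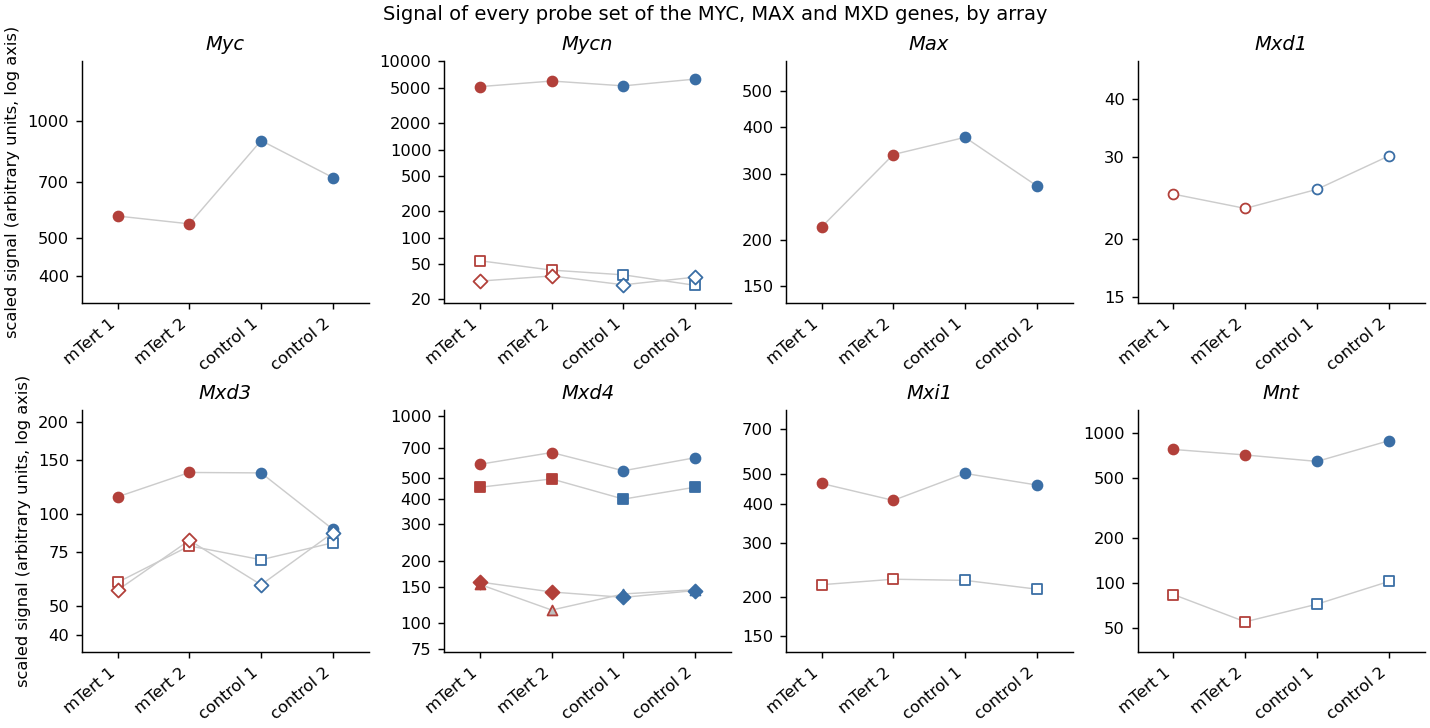
Scaled signal (arbitrary units, log axis) of the 17 probe sets of the 8 genes on each array, with mTert in red and control in blue; a marker shape is 1 probe set of that gene and a grey line links its 4 values. Filled symbols are present calls, grey ones marginal and open ones absent. The Myc signals of 571 and 545 in mTert lie below the 892 and 717 of control, while the present probe sets of the other genes overlap between groups.

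Mycn, the MYC relative known from embryonic and neural tissue, gave no single answer across its 3 probe sets. Probe set 1425923_at was present on all arrays, with signals of 5185 and 5999 in mTert and 5289 and 6314 in control. The groups overlapped, and the log2 difference was -0.05 (SE 0.12, 95% interval -0.34 to 0.24). The other 2, 1417155_at and 1425922_a_at, were absent on all 4 arrays, with deposited detection p-values between 0.246 and 0.568. Their signals were 54.9 and 43.0 in mTert against 38.0 and 28.9 in control for 1417155_at, and 32.3 and 36.9 against 29.3 and 35.8 for 1425922_a_at. Whether Mycn transcript was present therefore depended on the probe set read. Both mTert signals of 1417155_at lay above both controls, but no fold is given for the absent probe sets.

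Max, the shared partner, was read by 1 probe set, 1423501_at, present on all arrays. Its signals were 216 and 338 in mTert 1 and mTert 2, against 376 and 279 in control 1 and control 2. The groups overlapped, and the spread within each was as wide as the gap between their means, 277 ± 86.1 in mTert and 327 ± 68.6 in control (SD, n = 2 each). The log2 difference was -0.26 (SE 0.27), with a 95% interval of -0.92 to 0.40. That interval includes 0 as well as a difference of the size seen for Myc.

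Among the MXD repressors, Mxd4 had the most probe sets, and all 4 of them were tested. The brightest, 1434378_a_at, had 585 and 667 in mTert against 544 and 629 in control. The next, 1434379_at, had 453 and 497 against 398 and 454. Both overlapped between groups, with log2 differences of 0.09 (SE 0.15) and 0.16 (SE 0.15).

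The remaining Mxd4 probe sets were dim. Probe set 1422575_at had 158 and 142 in mTert against 134 and 144 in control, a difference of 0.11 (SE 0.21). Probe set 1422574_at lay on the other side at -0.09 (SE 0.24), with 154 and 116 against 139 and 145, and was called marginal on mTert 2. Over the 4 probe sets the 95% intervals together ran from -0.67 to 0.62, so the direction of Mxd4 was not settled.

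Mxi1, another MAX-binding repressor, had 1 tested probe set, 1450376_at, with 466 and 411 in mTert against 502 and 461 in control. The mTert 1 signal lay between the control signals, and the log2 difference was -0.14 (SE 0.15, 95% interval -0.51 to 0.24). Its other probe set, 1425732_a_at, was absent on all arrays, with signals between 212 and 229.

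Mnt, a MAX partner that antagonises MYC in cycling as well as resting cells, had 777 and 714 in mTert against 646 and 887 in control for 1418192_at. The mTert signals fell inside the control range, and the difference was -0.02 (SE 0.18, 95% interval -0.47 to 0.42). The other Mnt probe set, 1418193_at, was absent on all arrays, with 83.7 and 55.1 in mTert and 72.2 and 102 in control.

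Mxd3, the MXD protein known from S phase cells, was present on all arrays through 1438847_at, with 114 and 137 in mTert against 136 and 89.1 in control. It overlapped between groups and had the widest interval of the tested members, with a log2 difference of 0.18 (SE 0.29, 95% interval -0.53 to 0.89). Its other probe sets, 1422970_at and 1448878_at, were absent on all arrays, with signals between 56.3 and 86.8.

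Mxd1 was absent on all 4 arrays. Its single probe set, 1422002_at, had 25.0 and 23.3 in mTert and 25.6 and 30.2 in control, with deposited detection p-values between 0.634 and 0.829. Neither group was above background, so no fold is given.

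Over the 10 tested probe sets, 0 passed limma's threshold in either direction. mTert lay wholly below control for 1 of the 10, that of Myc, as it did for 12.1% of all tested probe sets. It lay wholly above control for 0 of the 10, and for 13.4% of all. The share of members whose groups did not overlap was therefore not above that of the array as a whole, 25.5%. The limma adjusted p of each of the 10 was 1.00.

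**Figure D2:**
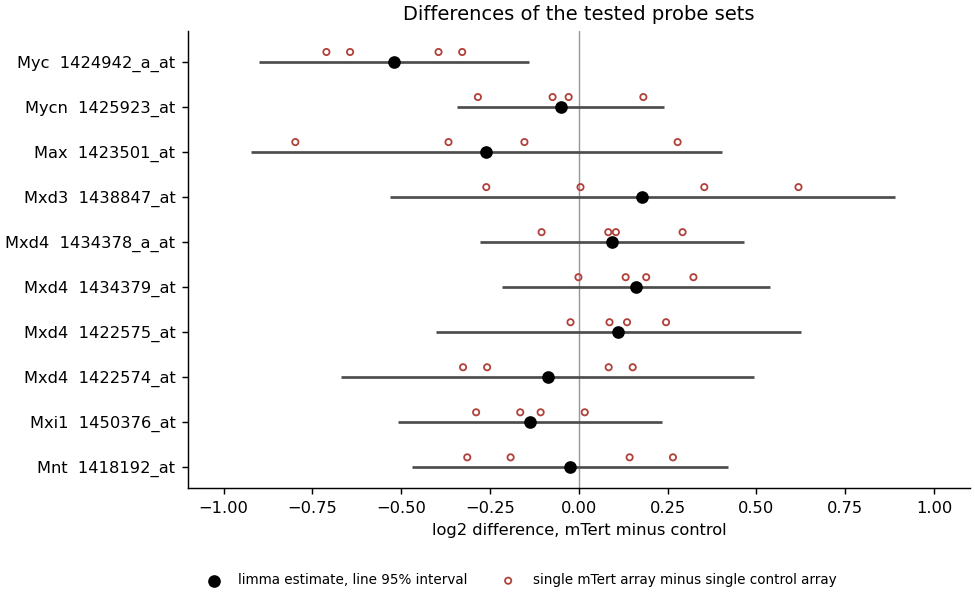
Log2 difference of mTert minus control for the 10 tested probe sets of 7 genes. Black points are limma estimates with unadjusted 95% intervals, and open red circles are the 4 differences between a single mTert and a single control array. Only the interval of Myc, -0.90 to -0.14, leaves out 0, and none of the 10 passed the test over all probe sets.

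The extended network also holds MLX, a MAX-like partner, with MLXIP (MondoA) and MLXIPL (ChREBP), sugar-responsive factors that pair with MLX, and MGA, a MAX partner that joins a T-box domain to the family. MYCL is a further MYC protein. Mlx had 377 and 380 in mTert against 391 and 406 in control, a log2 difference of -0.07 (SE 0.15), with both mTert signals below the controls. Mlxip stood at 0.07 (SE 0.18) and Mga at 0.11 (SE 0.29), both with overlapping groups. The second Mga probe set lay on the other side at -0.04 and the second Mlx probe set on the same side at -0.04. Mycl and Mlxipl were absent on all arrays in all of their probe sets. None of the 3 tested genes passed limma's threshold (adjusted p = 1.00 for each).

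The following gene lists were read from the probe set of each gene with the highest mean signal, and described beside all 7387 genes tested. Those had a median log2 difference of 0.008 (quartiles -0.08 and 0.11), and 47.5% of them were lower in mTert in sign. Among genes the background of groups that do not overlap was 25.4%, with 13.8% above and 11.7% below.

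Components of the SIN3 corepressor, which MXD proteins and MNT bring to DNA, centred on -0.018 over 11 tested genes of 15 listed. The NCOR corepressor gene of the list, Ncor1, had no probe set with its symbol alone and was not tested. In sign 5 were higher and 6 lower, and 0 passed. Ing2, a chromatin reader of the SIN3 complex, had 203 and 238 in mTert against 386 and 320 in control. Both mTert signals lay below both controls, at a log2 difference of -0.68 (SE 0.19) and a limma adjusted p of 1.00. It is read by 1 probe set, called absent on mTert 1 and present on the other arrays, so it was called present on only 1 of the 2 mTert arrays. Sap30, a SIN3-associated subunit, stood at 0.25 (SE 0.15), with 419 and 456 in mTert against 351 and 382 in control. Sin3a, the scaffold, stood at -0.17 (SE 0.14), and its dimmer probe set lay on the other side at 0.08. Arid4b stood at 0.15 (SE 0.23).

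Coactivators and partners of MYC centred on -0.002 over 11 tested genes of 15 listed, with 5 higher, 6 lower and 0 passing. Kat2a, a histone acetyltransferase, stood at 0.24 (SE 0.14), while its other probe set stood at -0.19. Smarcb1, a SWI/SNF subunit that binds MYC, had 874 and 949 in mTert against 804 and 790 in control, a difference of 0.19 (SE 0.12). Both Kat2a and Smarcb1 lay entirely above control in these probe sets. Actl6a at 0.48 (SE 0.27) and the elongation kinase Cdk9 at -0.19 (SE 0.13) overlapped between groups. Zbtb17, the MIZ1 factor through which MYC represses, was present on fewer than 2 arrays and was not tested.

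Enzymes and adaptors that set the stability of MYC protein centred on 0.028 over 13 tested genes of 15 listed. In sign 7 were higher and 6 lower, 4 lay entirely above control and 0 entirely below, and 0 passed. Over all genes tested, 13.8% lay entirely above and 11.7% entirely below. Btrc, an F-box protein that ubiquitinates MYC, had 354 and 352 in mTert against 292 and 258 in control, a difference of 0.36 (SE 0.16, limma adjusted p = 1.00). Aurka, a mitotic kinase that stabilises MYCN, stood at 0.23 (SE 0.18), and the ubiquitin ligase Stub1 at 0.13 (SE 0.11), though its other probe set stood at -0.07. Cip2a, which protects MYC from dephosphorylation, had 130 and 230 in mTert against 162 and 76.2 in control, so its 0.64 (SE 0.44) came with overlapping groups, and it was marginal on mTert 1 and control 2.

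Genes that MYC is known to activate lay evenly on both sides. Of 36 tested genes of 40 listed, 18 were higher and 18 lower in sign, with a median of 0.003 (quartiles -0.06 and 0.08). In 7 both mTert signals lay above both controls and in 6 below, or 13 of 36 without overlap, and 0 passed limma's threshold. Among all genes tested the share without overlap was 25.4%. With arrays scaled to a common median the list's median was -0.034, when that of all tested probe sets was -0.031, so its sign followed the scaling.

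The activated genes with the smallest p lay on different sides. Shmt2, the mitochondrial serine hydroxymethyltransferase, had 1269 and 1200 in mTert against 1027 and 1010 in control, which is 0.28 (SE 0.11) on the log2 scale. Further probe sets, at 0.02 and -0.15, did not share that shift. Eif4e, the cap-binding factor of translation, had 1632 and 1482 in mTert against 1979 and 1699 in control, a difference of -0.24 (SE 0.12), with its other probe sets at -0.17 and 0.21.

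Ncl, the nucleolar protein nucleolin, had 3572 and 3114 in mTert against 3807 and 3806 in control, which is -0.19 (SE 0.10). The other probe sets of Ncl stood at -0.03, -0.02 and 0.73, the last with a spread from 67.6 to 259 over the arrays. Ldha, lactate dehydrogenase A, had 4578 and 4615 in mTert against 4288 and 4140 in control, a difference of 0.13 (SE 0.08). For Shmt2, Eif4e, Ncl and Ldha alike the adjusted p of limma was 1.00. Odc1, ornithine decarboxylase and a classical MYC target, had 2485 and 2549 in mTert against 2775 and 2567 in control, a difference of -0.08 (SE 0.10). Odc1, Npm1 and Cdk4 were picked as familiar targets after their values were seen. Npm1 and Cdk4 differed by 0.01 (SE 0.10) and -0.004 (SE 0.10).

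The element that MYC, MXD and MNT proteins read with MAX, CACGTG, is its own reverse complement and was looked for on both strands in RefSeq promoter windows of 300 bases, from 250 before to 50 after a transcript start (GRCm38.p6). The windows of Max, Mnt and Mxd4 held it, 3 of the 7 member genes with a window, as did 10 of 34 activated targets (29.4%), against 10.8% of the 9888 windowed genes with a symbol on the array and 8.09% of all 27025 genes of the table. Mycn, Mxd1, Mxd3 and Mxi1 had no such match in theirs. The activated targets were listed because MYC is known to act on them, so their share is no independent support for the element. The sites below show the shared element, with CACGTG in capitals, in 3 members, in Mlx and in a lower (Eif4e) and a higher (Ldha) target.
Max, chr12:76962234-76962263, minus strand: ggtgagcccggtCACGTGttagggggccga
Mnt, chr11:74830789-74830818, plus strand: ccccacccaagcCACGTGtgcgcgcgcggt
Mxd4, chr5:34187912-34187941, minus strand: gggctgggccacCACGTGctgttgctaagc
Mlx, chr11:101087238-101087267, plus strand: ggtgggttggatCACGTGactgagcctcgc
Eif4e, chr3:138527192-138527221, plus strand: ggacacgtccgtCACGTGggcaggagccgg
Ldha, chr7:46845744-46845773, plus strand: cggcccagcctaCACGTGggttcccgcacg
The element began 3 bases before the start in Max, 123 in Mnt, 219 in Mxd4, 40 in Mlx, 64 in Eif4e and 48 in Ldha. The windows of Eif4e and Ldha each held another, 228 and 145 bases before the start, and the one nearer the start is shown. A match is a description of the letters and not a measured binding site. The 8 tested activated targets with the element had 4 higher and 4 lower members and a median of 0.004 (range -0.24 to 0.13). The 22 with a window but without the element in it had 10 higher and 12 lower, with a median of -0.007 (range -0.21 to 0.37). The remaining 6 had no window in the table. Elements outside the windows were not looked for, so a gene without a match can still hold one.

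Genes that MYC is known to repress centred on -0.011 over 13 tested genes of 14 listed, with 6 higher and 7 lower in sign. None lay entirely above control, 3 lay entirely below, and 0 passed. The shares over all genes tested were 13.8% above and 11.7% below. Gadd45g, a growth arrest and stress gene, had 448 and 529 in mTert against 839 and 708 in control, at -0.66 (SE 0.16, limma adjusted p = 1.00). Cebpa, a differentiation factor, stood at -0.44 (SE 0.19), with 453 and 496 in mTert against 551 and 753 in control. Cdkn1b, the kinase inhibitor p27, had 798 and 676 in mTert against 864 and 877 in control, at -0.24 (SE 0.14), while its dimmer probe set stood at 0.36. Cdkn1c, at -0.29 (SE 0.29), overlapped between groups. Cdkn1a, the inhibitor p21, stood at 0.03 (SE 0.16) and Cdkn2b, p15, at 0.23 (SE 0.27), both overlapping. These were named after their values were seen, as the best-known repressed genes. With the mean of all tested probe sets of a gene, the list's median was 0.024, so its sign depended on how probe sets were joined.

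Known targets of the MLX arm lay on opposite sides. Txnip, an arrestin that restrains glucose uptake and a direct target of MondoA, had 1426 and 1830 in mTert against 1190 and 1157 in control, which is 0.46 (SE 0.15) on the log2 scale. A second probe set, with 1555 and 1887 in mTert against 1094 and 876 in control, stood at 0.81. Arrdc4, a related arrestin and MondoA target, had 276 and 335 in mTert against 245 and 253 in control, at 0.29 (SE 0.18), and its second probe set stood at 0.09 with overlapping groups.

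Klf10, a target of both TGF-beta and ChREBP, had 910 and 857 in mTert against 1833 and 1701 in control, at -1.0 (SE 0.11). Fasn, fatty acid synthase, had 1256 and 1218 in mTert against 1381 and 1396 in control, at -0.17 (SE 0.11). Over the 6 tested genes of 8 listed, 2 lay entirely above and 2 entirely below control, against 13.8% and 11.7% of all genes tested. The median of the 6 was 0.055. None passed over all probe sets, with limma adjusted p of 0.695 for Klf10 and 1.00 for Txnip, Arrdc4 and Fasn. Klf10 and Txnip also stand out over the whole array, so their place here is not independent of earlier results.

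**Figure D3:**
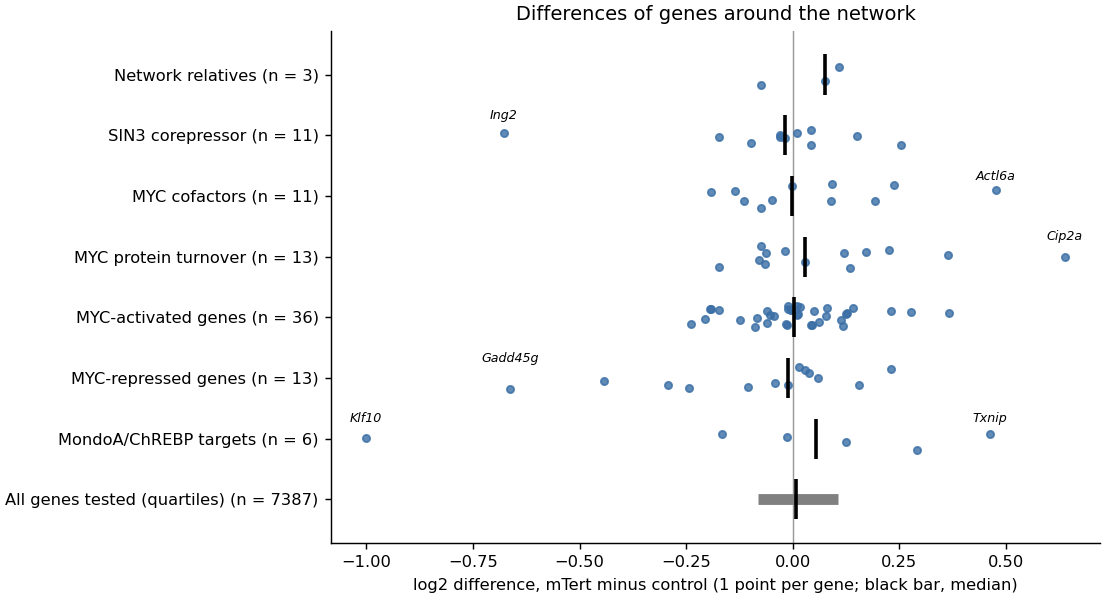
Log2 difference of mTert minus control for each tested gene of 7 lists around the network (1 blue point per gene, spread vertically for legibility), with the list median as a black bar. The bottom row gives the median and quartiles of all 7387 genes tested. List medians lie between -0.018 and 0.075, close to the 0.008 of all genes, with single genes such as Klf10 at -1.0 and Txnip at 0.46 far from them.

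The genes whose pattern over the 4 arrays was most like that of Myc were found by the root mean square distance between log2 signals, each centred on its own mean, over all other tested genes. They were Taf7, a TFIID subunit (distance 0.017), Otud5, a deubiquitinase (0.036), Errfi1, a feedback inhibitor of the EGF receptor (0.043), Crtc3, a CREB coactivator (0.053), and Ier3, an immediate-early gene (0.056). Errfi1 had 984 and 911 in mTert against 1571 and 1300 in control, and Ier3 had 2468 and 2174 against 3850 and 3161. Like Myc, each had its highest signal on control 1 and its second highest on control 2. Crtc3 was marginal on mTert 1 and absent on mTert 2, so neither mTert signal was called present and it passed the filter through the control arrays alone. This likeness was the criterion of choice and carries no test, and 4 arrays give it little weight. The second Errfi1 probe set stood at -0.34, beside -0.59 for the one shown.

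**Figure D4:**
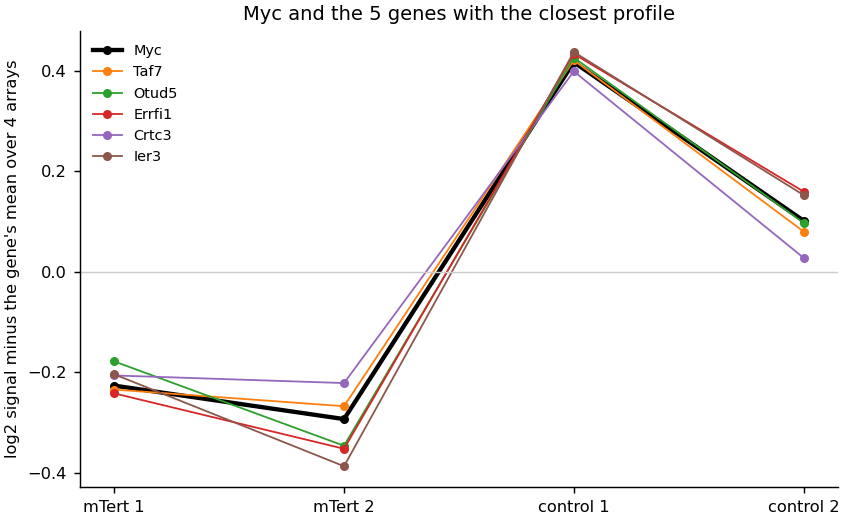
Log2 signal of Myc (black) and of the 5 genes with the closest profile, each minus its own mean over the 4 arrays. All 6 genes have both control values above both mTert values and the highest value on control 1.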

How the data were processed

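RNA of 4 MEF samples was hybridised to 1 MOE430A array each, with groups and numbers read from the sample titles. Each file as deposited gives an intensity on a linear scale for every probe set, with a present, marginal or absent call, and a detection p-value, per the file headers. No source used here names the summarising software. After trimming 2% of probe sets at either end, the mean was between 498.6 and 498.8 on each array, so the arrays had been scaled before deposit, and the series table held the same intensities (largest difference 0).

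Signals were scaled to a common trimmed mean and taken to log2, and the 1 signal at 0 took the value of the lowest present call on that array. The 64 control probe sets and probe sets present on fewer than 2 arrays were left out, whatever their group. The platform annotation of GEO gave a single symbol to 20380 probe sets and several to 691, and did not list 1555. The comparison used lmFit and eBayes (with an intensity trend) of limma 3.58.1 under R 4.3.3, with p-values adjusted by Benjamini and Hochberg over 12396 probe sets at 0.05. The fit was tested on simulated data in which arrays varied independently, without the deviation that samples of the same number shared here. The number of arrays limits the precision.

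The members, gene lists, named genes and tests were chosen with earlier results of these data known. Named were all members, the 4 genes of each list with the smallest limma p, and the 5 genes nearest to Myc. Odc1, Npm1, Cdk4, Cdkn1a and Cdkn2b fell outside that rule and were chosen after their values were seen. Probe sets ending in _x_at, _s_at or _a_at can read related or alternative transcripts. Sequences came from RefSeq promoter windows, which held 7 of the 8 members, all but Myc.

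Alternatives were a replicate block, quantile or median scaling, other filters, an offset of 50, no trend, the mean over probe sets and each array left out.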

Additional observations from a re-analysis of the deposited data

How the results depend on the processing

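Of the 10 tested member probe sets, 0 passed under any alternative tried, and the Myc difference kept its sign in all of them. It ranged from -0.68 to -0.36 with 1 array left out and from -0.56 to -0.48 otherwise, with limma adjusted p between 0.617 and 1.00. The replicate block raised the number of probe sets past the threshold on the array to 18 (3 higher, 15 lower), against 0 without it, and no other alternative made a call. The Myc adjusted p with the block was 0.617. The labels share numbers only, and samples of the same number deviated together (r = 0.373 across probe sets). With 1 array left out the sign changed for Mycn (-0.179 to 0.077), Max (-0.582 to 0.063), Mxd3 (-0.13 to 0.49), Mxd4 1434378_a_at (-0.011 to 0.198), Mxd4 1422574_at (-0.29 to 0.12) and Mnt (-0.25 to 0.20), and for no other tested member probe set. No other alternative turned a member. Common median scaling gave list medians of -0.038 for cofactors, -0.034 for activated and -0.047 for repressed genes, and the mean over probe sets gave 0.024 for repressed genes. With 1 array left out the medians ran from -0.101 to 0.213 for network relatives, -0.076 to 0.078 for corepressors, -0.031 to 0.020 for cofactors, 0.037 to 0.097 for turnover, -0.031 to 0.032 for activated, -0.179 to -0.057 for repressed and -0.046 to 0.157 for MLX-arm genes. Such a fit leaves the numbers 1 and 2 unequal between groups. Counts of lower activated genes, added after seeing the data, then ran from 14 to 23 of 36. Network relatives had 3 lower without mTert 2 or control 1, against 1 with all arrays. The causes were not tested. Probe sets not above background carry no fold.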
